A study of Mus musculus with 5 samples.

Results

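Promoter peaks only with DOP are H3K9ac peaks of the DOP-treated list that had no counterpart in the untreated list. A peak was a member when its centre lay within 1 kb of the start of a protein-coding transcript and no untreated peak was centred within 2 kb of it. This rule found 547 peaks, or 2.16% of the 25276 promoter peaks of the DOP-treated list, which holds 34286 peaks. The untreated list holds 33355. The members were thus chosen by the presence and position of peaks in these lists. By the same 2 kb limit 9.16% of all DOP-treated peaks had no untreated counterpart, and 28.8% of those farther than 1 kb from a start. The 547 peaks lay within 1 kb of the starts of 431 genes, which are 3.79% of the 11377 genes with a DOP-treated promoter peak and 1.94% of the 22232 annotated protein-coding gene symbols. The mirror rule gave 370 untreated-only promoter peaks at 289 genes, or 1.48% of the 25008 untreated promoter peaks. Since the rule compares one list with the other, these counts describe the lists and carry no test.

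STHdh Q111 cells are mouse striatal progenitors, a line on the C57BL/6 strain that is homozygous for mutant huntingtin (STHdhQ111/Q111). It is a single line, maintained at a permissive temperature. Every culture was without serum for 24 h. DOP-treated cells (2 samples) received 4 mM 4-deoxypyridoxine hydrochloride in that medium, and untreated cells (2 samples) received its vehicle, DPBS. The IgG control (1 sample, untreated cells) has no values here. Chromatin was immunoprecipitated with an antibody against histone H3 acetylated at lysine 9, and the authors deposited 1 peak list for each condition, so no value has a replicate error, and a gene with a peak in 1 list only may still have been acetylated in the other condition.

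Acetylation of H3 at lysine 9 is laid down by acetyltransferases such as Gcn5 and PCAF and removed by histone deacetylases. It marks nucleosomes at the start sites of transcribed genes, usually on both sides of a gap where the transcription machinery sits. DOP is an antagonist of vitamin B6 and inhibits sphingosine-1-phosphate lyase (SPL), which needs that cofactor to break down sphingosine-1-phosphate, and nuclear sphingosine-1-phosphate is known as an inhibitor of class I histone deacetylases.

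The cell type was checked by the presence of a promoter peak at marker genes. Of 33 annotated markers of neural, glial, vascular and fibroblast cells, 5 had a promoter peak in both lists, namely the progenitor genes Vim and Msi1, the glutamate transporter Slc1a2, and the collagens Col1a1 and Col1a2. Neither list held a promoter peak at 24 of them, among them the progenitor genes Nes, Sox2 and Pax6 and the striatal neuron genes Drd1a, Drd2, Penk, Tac1, Adora2a and Rgs9. At 3 markers the only promoter peaks were DOP-only ones. These were Ppp1r1b (DARPP-32, the phosphatase inhibitor of striatal projection neurons) with 1 peak, the myelin gene Mbp with 2, and the endothelial receptor gene Kdr with 1. The only untreated peak at a marker without a DOP-treated one was at Syn1.

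The sequences of 6 members are given because they span the range of the CpG content described later and belong to genes of different roles. Each is the 200 bp interval of the peak, read from the NCBIM37 assembly (mm9) 5′ to 3′, with every CG in capitals. The strand is that of the gene with the nearest start. For the 2 intervals shared by genes these are Vps35 and 4632434I11Rik, while Orc6 and Prcp lie on the plus strand. None of the 6 intervals overlaps an annotated exon, so the 3 that lie downstream of a start, at Vps35, Isg15 and Pik3r2, are in introns. The first 3 are the interval with the highest score, shared by the divergent genes Vps35 and Orc6, one near the starts of Prcp and 4632434I11Rik, and one upstream of the latrophilin gene Lphn2. The other 3 lie upstream of the secreted ligand gene Wnt10b, and downstream of the starts of the interferon-induced gene Isg15 and of Pik3r2, a regulatory subunit of PI3 kinase.
Vps35 and Orc6, chr8:87823150-87823349, minus strand: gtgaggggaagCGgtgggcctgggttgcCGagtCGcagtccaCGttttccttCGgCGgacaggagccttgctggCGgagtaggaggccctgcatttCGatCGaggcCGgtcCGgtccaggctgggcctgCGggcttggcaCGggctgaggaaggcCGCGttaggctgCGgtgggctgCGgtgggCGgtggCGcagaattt
Prcp and 4632434I11Rik, chr7:100022859-100023058, minus strand: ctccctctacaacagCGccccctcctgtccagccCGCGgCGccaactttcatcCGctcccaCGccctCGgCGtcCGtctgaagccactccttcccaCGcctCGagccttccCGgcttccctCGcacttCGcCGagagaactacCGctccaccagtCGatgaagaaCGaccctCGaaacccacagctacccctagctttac
Lphn2, chr3:148652824-148653023, minus strand: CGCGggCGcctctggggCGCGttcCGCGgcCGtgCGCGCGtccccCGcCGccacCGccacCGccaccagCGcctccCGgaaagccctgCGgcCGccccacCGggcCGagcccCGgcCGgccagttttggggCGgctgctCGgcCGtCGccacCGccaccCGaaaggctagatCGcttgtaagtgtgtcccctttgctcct
Wnt10b, chr15:98608688-98608887, minus strand: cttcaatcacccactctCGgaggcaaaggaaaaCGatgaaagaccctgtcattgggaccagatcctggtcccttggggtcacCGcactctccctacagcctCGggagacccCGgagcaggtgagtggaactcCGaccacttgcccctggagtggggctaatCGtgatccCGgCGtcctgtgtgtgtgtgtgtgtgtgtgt
Isg15, chr4:155574529-155574728, minus strand: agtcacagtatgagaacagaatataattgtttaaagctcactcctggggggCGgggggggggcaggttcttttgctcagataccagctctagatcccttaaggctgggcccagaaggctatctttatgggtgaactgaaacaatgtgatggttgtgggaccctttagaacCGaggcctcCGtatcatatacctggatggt
Pik3r2, chr8:73298162-73298361, minus strand: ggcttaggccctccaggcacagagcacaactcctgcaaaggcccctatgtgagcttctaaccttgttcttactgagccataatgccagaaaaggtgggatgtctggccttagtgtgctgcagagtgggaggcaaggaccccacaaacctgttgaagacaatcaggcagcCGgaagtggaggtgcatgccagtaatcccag
The interval at Vps35 and Orc6 held 19 CG dinucleotides at 68.5% GC, and that at Prcp also held 19, at 64% GC. Lphn2 had the most of the 6, with 30, and Wnt10b had 9. At Isg15 only 3 were present, at 49.5% GC, and at Pik3r2 only 1, so that the members printed run from CpG-dense to CpG-poor sequence.

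The score of column 5 is the authors' own and ranks peaks within a list. Among the members it ran from 23.2 to 1445 with a median of 106. Set against all DOP-treated peaks, the median member stood at percentile 10.9, whereas promoter peaks with an untreated counterpart within 2 kb, called shared promoter peaks from here on, had a median percentile of 60.3. At or below percentile 10 lay 254 members (46.4%, 95% Wilson interval 42.3% to 50.6%), and 444 lay at or below percentile 25. Only 23 members reached percentile 50 and 3 reached percentile 90. The share of promoter peaks without a counterpart fell from 34.4% in the lowest score decile to 0.0944% in the highest. The untreated-only promoter peaks had a median percentile of 11.2 in their own list, with 49 at percentile 50 or above and 9 at percentile 90 or above. The DOP-treated list thus held more promoter peaks of its own at low scores, and the untreated list more at high ones. Intervals here and below cover the counting of peaks only, and neighbouring peaks are not independent.

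**Figure D1:**
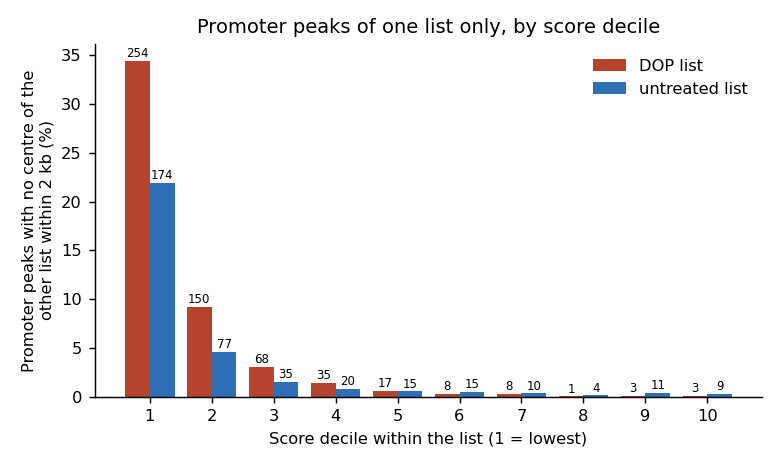
Share of promoter peaks without a counterpart in the other list (vertical axis, percent) in each score decile of the list (horizontal axis), for the DOP-treated and the untreated list, with the number of such peaks above each bar. Of the 547 DOP-only promoter peaks, 254 lie in the lowest decile and 3 in the highest, against 174 and 9 of the 370 untreated-only peaks.

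The 3 members of highest score formed 1 locus around the divergent starts of Vps35 and Orc6 on chromosome 8. Vps35 is the cargo-binding core of the retromer, which returns receptors from endosomes to the Golgi, and Orc6 is a subunit of the origin recognition complex. Their scores were 1445, 1374 and 1151, at percentiles 96.0, 95.2 and 91.2 of the DOP-treated list. The nearest untreated centre lay 108399 bp away, and the nearest DOP-treated peak with a counterpart was 108367 bp away, so these 3 peaks stood alone in a long stretch of both lists. Prkd2, a diacylglycerol-responsive kinase, came next with a score of 1037 at 655 bp downstream of its start. Myo19, a mitochondrial myosin, and Pigw, an enzyme of GPI anchor synthesis, shared a start region with 2 members, which scored 1007 and 721. Rapgef3 and Mid1ip1 were also among the genes of the 9 highest-scoring members. Rapgef3 (Epac1) is an exchange factor for Rap that cyclic AMP activates, and its peaks scored 628 and 549. Mid1ip1, which promotes fatty acid synthesis through acetyl-CoA carboxylase, had a peak with a score of 619.

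Among the members from rank 10 to 23 the genes were more varied in role. Prcp, a carboxypeptidase that cleaves angiotensin and melanocortin peptides, and 4632434I11Rik shared a peak with a score of 613. The transcription factor gene Maf scored 561 and had no untreated peak within 1025379 bp. Zbtb20, a zinc finger repressor of brain development, scored 527, and Zfr2 had peaks of 523 and 354. Vldlr, a receptor for reelin and lipoproteins, scored 516. Wnt10b had peaks of 516 and 386 on either side of its start, 206 bp downstream and 206 bp upstream. Cyp1b1, which oxidises oestrogens and polycyclic hydrocarbons, had peaks of 505 and 363. Prr13 scored 483, the actin-bundling gene Fscn1 467, the orphan receptor gene Mrgpre 460 and Ltbp1, which holds latent TGF-beta in the matrix, 453. Fscn1 and Ltbp1 also had 2 and 3 untreated promoter peaks, at other starts. Glrx, a glutaredoxin that removes glutathione from proteins, had peaks of 424 and 349. The higher of these, at percentile 50.6, was the last member above percentile 50.

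The remaining members down to rank 40 lay between scores of 414 and 343. Among them were Nsmce1 (414), a subunit of the SMC5/6 complex, the latrophilin gene Lphn2 (410), the adenosine receptor gene Adora2b (404.5), the tyrosine kinase gene Fes (384), and Gnas (378), which encodes the stimulatory G protein subunit. Isg15, a ubiquitin-like modifier, and Synj2, an inositol phosphatase, had scores of 366 each. Kank1 (364), Pik3r2 (355) and the activin receptor gene Acvr2b (352) followed, and B230312A22Rik (402), Gm9726 (367) and 1190002N15Rik (343) were also in this range. The 5 members of lowest score, from 23.2 to 25, lay at Trim5, Pdlim3, Ptger3, Cryba2 and Arhgef37.

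**Figure D2:**
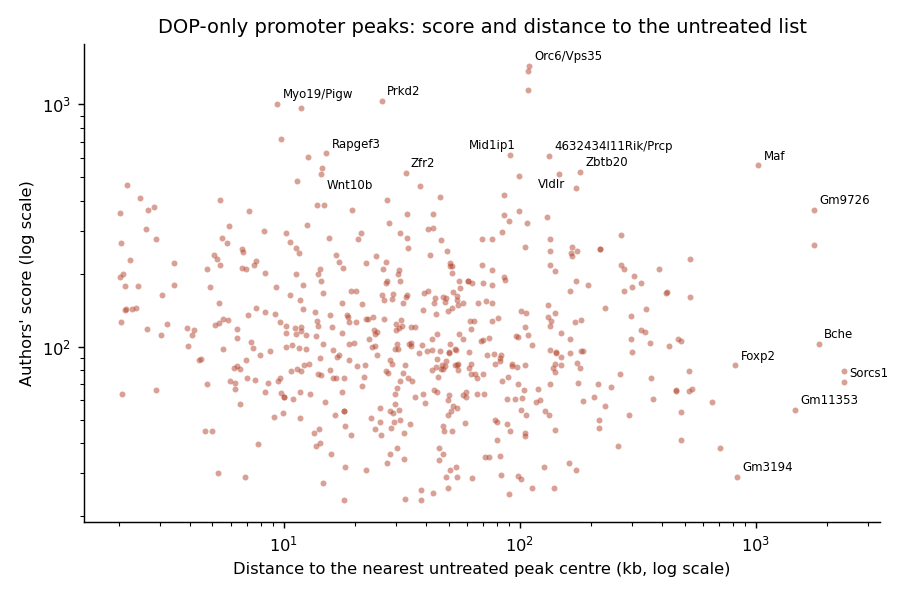
Score of each DOP-only promoter peak (vertical axis, log scale) against the distance from its centre to the nearest untreated peak centre (horizontal axis, kb, log scale), 1 point per peak, with genes of some of the highest-scoring and most distant peaks named. The 3 points at the top belong to Orc6 and Vps35, and the 2 points at the right, with scores of 79.5 and 71.5, belong to Sorcs1.

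Most members were far from any untreated peak. The distance to the nearest untreated centre had a median of 37660 bp, and ran from 2034 to 2359497 bp. Between 2 and 5 kb lay 37 members, between 5 and 10 kb 56, between 10 and 100 kb 330, and over 100 kb 124. Both peaks of Sorcs1, a neuronal sorting receptor, were at least 2359027 bp from the untreated list, with scores of 79.5 and 71.5. Bche, which encodes butyrylcholinesterase, was 1847837 bp away with a score of 103. Developmental regulators were also found among the most distant members, with Maf, Foxp2 (819217 bp, score 84), Satb1 (653016 bp, score 59) and Tox (536708 bp, score 67). The others among the 10 most distant were the predicted genes Gm9726, Gm11353, Gm3194 and Gm10119. Of the 431 genes, 368 had no untreated peak within 1 kb of any of their starts, and 309 (71.7%, 67.3% to 75.7%) had none within 10 kb. The mirror values were close, as 211 of the 289 untreated-only genes (73.0%) had no DOP-treated peak within 10 kb of a start, and the untreated-only peaks had a median distance of 39206 bp to the DOP-treated list. The other 63 of the 431 genes had an untreated promoter peak at another of their starts. Among them were Fscn1 and Klf3 with 2 such peaks each, Ltbp1 and Wnt5b with 3, Oxr1 and Fbxw7 with 4, and Synj2 with 5. Several untreated peaks lay near some of the genes, as at Gnas, where 4 untreated peaks lay within 10 kb of a start, and Pik3r2, where 9 did. At 4 genes both a DOP-only and an untreated-only promoter peak were present.

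At the 2 kb limit, the members just inside were at Pik3r2 (2034 bp), Tmub1 (2036 bp) and 6430571L13Rik (2050 bp), and the peaks just outside were at Ppargc1b (1921 bp), Sys1 (1846 bp) and Spnb4 (1787 bp). At the 1 kb limit, the members just inside were at Cxxc4 (997 bp from the start), 1110012L19Rik (974 bp) and Lrrc4c (968 bp), and the peaks just outside were at Wdfy3 (1026 bp), Lphn2 (1040 bp) and Nek10 (1041 bp).

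Chained within 1 kb, the members formed 425 loci, of which 316 held a single member, 98 held 2, 9 held 3 and 2 held 4. No other peak of the DOP-treated list lay within 1 kb of 311 members (56.9%), against 7.83% of the shared promoter peaks. Of the untreated-only peaks 57.3% stood alone in their own list. The 2 kb limit itself favours peaks that stand alone, so these shares are a description. At 118 genes lay 2 or more members and at 14 genes 3 or more. The 2 loci of 4 peaks were those of Pde10a, which encodes the cyclic nucleotide phosphodiesterase of striatal neurons, with scores of 187, 175, 149 and 80.1, and Ripply3, a corepressor of T-box factors, with scores from 76.1 down to 27.3. Genes with 3 peaks each included Fam123b, Cd274 with 5033414D02Rik, Zfand6, Arhgef37, Wdr96, Lrrc4c and Dnhd1, besides Orc6, Vps35 and Zbtb20. Cd274 encodes the immune checkpoint ligand PD-L1, and its peaks scored 281, 128 and 123. Fam123b, an X-linked inhibitor of Wnt signalling, had peaks of 288, 218 and 77. Lrrc4c, a synaptic ligand of netrin-G1, had 3 weak peaks (106, 53.7 and 41.3) at least 481932 bp from the untreated list.

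On which side of the start a peak lay was not part of the rule. The members were centred downstream of the nearest start in 364 cases (66.5%, 62.5% to 70.4%), against 74.5% of the shared promoter peaks (difference -7.94 points, Newcombe 95% interval -12.0 to -4.08). Of the untreated-only peaks 68.6% lay downstream, and the difference of the members from them, -2.10 points, had an interval from -8.17 to 4.11. The members also lay nearer to the start. Within 100 bp of it were 131 members (23.9%), for example those of Mrgpre at 1 bp, Fscn1 at 17 bp and Vldlr at 24 bp, against 9.94% of the shared promoter peaks (difference 14.0 points, 10.6 to 17.8). Of the untreated-only peaks 23.2% were that near, and the interval of the members' difference from them ran from -4.98 to 6.20 points. The most filled 100 bp for the members was between 100 and 200 bp downstream, with 19.4% of them, and for the shared promoter peaks between 200 and 300 bp, with 19.7%. Members at the starts of 2 or more genes, such as Vps35 with Orc6 and Myo19 with Pigw, were few. They numbered 18 (3.29%), against 12.6% of shared promoter peaks (difference -9.33 points, -10.6 to -7.44). Untreated-only peaks were as seldom at such starts, with 4.05% (difference of the members from them -0.763 points, -3.56 to 1.67). The members and the shared promoter peaks also differed in score, and within score bands the downstream share of the members was 67.7% against 48.5% at or below percentile 10, 63.3% against 53.1% from there to percentile 20, 66.7% against 66.5% up to percentile 50, and 73.9% against 81.2% above it. The direction of the difference in side from the shared promoter peaks thus turned at low scores. This was not particular to the members, as 69.5% of the untreated-only peaks at or below percentile 10 and 67.5% from there to percentile 20 lay downstream.

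**Figure D3:**
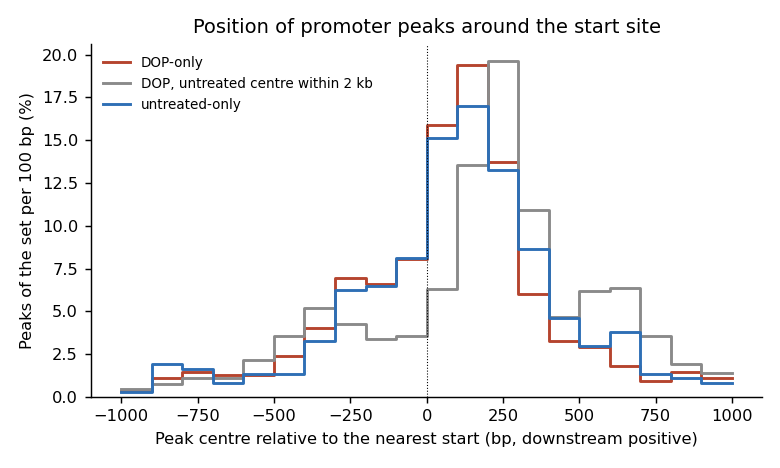
Percent of the peaks of each set (vertical axis) per 100 bp of the distance from the nearest protein-coding start (horizontal axis, bp, downstream positive), for DOP-only, shared DOP-treated and untreated-only promoter peaks. The DOP-only and untreated-only lines are highest between 100 and 200 bp downstream, the shared peaks between 200 and 300 bp.

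CpG-rich sequence, here at least 50% GC with an observed over expected CpG ratio of at least 0.6 in the 200 bp interval, was read as a property of the promoters that the rule did not use. It was found in 265 members (48.4%, 44.3% to 52.6%), among them those of Vps35, Prkd2, Maf, Vldlr, Acvr2b, Notum and Col12a1, with Maf at 75.5% GC and Acvr2b at 77.5%. Members such as those of Rapgef3, Cyp1b1, Glrx, Isg15 and Pik3r2 fell outside it. The share was lower than in shared promoter peaks (59.6%, difference -11.2 points, -15.4 to -6.96) and than in untreated-only peaks (58.4%, difference -9.93 points, -16.4 to -3.35). Read over 1 kb around the centre, 41.3% of the members and 69.4% of the shared promoter peaks were CpG-rich, a wider difference of -28.1 points (-32.2 to -23.9), and 52.2% of the untreated-only peaks were. Median GC content was 61% in the members and 62.5% in both other sets, and the median CpG ratio was 0.610, 0.708 and 0.707. Across bands of score the share rose among the shared promoter peaks and changed little among the members. At or below percentile 10, 52.0% of the members (45.8% to 58.0%) were CpG-rich against 28.3% of the shared promoter peaks (24.5% to 32.5%), and from percentile 10 to 20 the shares were 45.3% and 29.8%. From percentile 20 to 50 they were 45.0% and 40.9%, and above percentile 50 they were 47.8% of 23 members and 72.5%. The members were thus less often CpG-rich than all shared promoter peaks but more often so than those of similarly low score. This excess at low score was not particular to the members. Of the untreated-only peaks, 58.6% were CpG-rich at or below percentile 10 of their own list and 63.6% from percentile 10 to 20. Among peaks with no other peak of their list within 1 kb, 52.1% of the members, 63.8% of the shared and 58.5% of the untreated-only promoter peaks were CpG-rich.

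**Figure D4:**
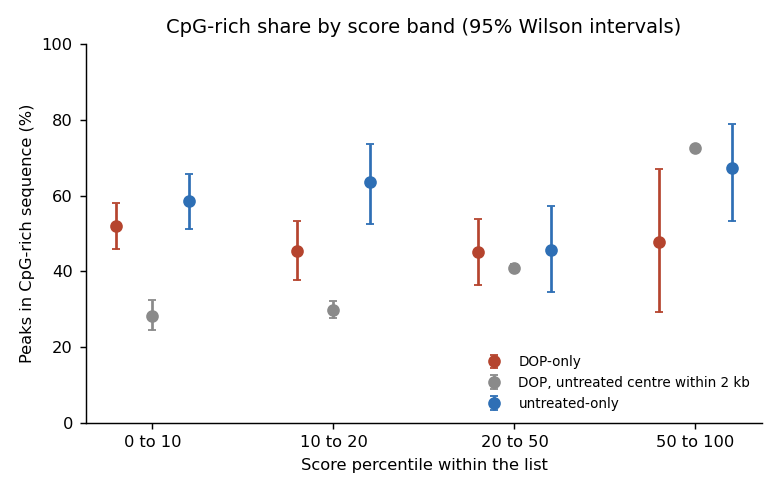
Share of promoter peaks in CpG-rich sequence (vertical axis, percent) in 4 bands of score percentile (horizontal axis) for DOP-only, shared DOP-treated and untreated-only peaks, with points for the share and bars for the 95% Wilson interval. In the lowest band the DOP-only share is 52.0%, the shared one 28.3% and the untreated-only one 58.6%, and above percentile 50 they are 47.8%, 72.5% and 67.3%.

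Short promoter motifs were searched on both strands. GGGCGG, the GC box bound by Sp1 and related factors, was in 29.4% of the member intervals (25.8% to 33.4%), 33.3% of the shared promoter peaks and 36.5% of the untreated-only peaks. Among the sequences above it occurs in those of Vps35, Lphn2 and Isg15. CCAAT was in 82 of the 547 member intervals and in 13.0% of the shared ones, CACGTG in 3.47% and 3.49%, CCGGAAG in 3.47% and 3.95%, TGANTCA in 3.11% and 2.43%, and TATAAA in 2.19% and 2.64%. TGACGTCA and the NRF1 motif were in 0 member intervals and in 0.226% and 0.133% of the shared ones, and the YY1 motif was in 1 member interval. In the 300 bases from 250 upstream to 50 downstream of the 713 starts near a member, GGGCGG was present in 55.96% against 44.2% of all 45975 protein-coding starts, and TATAAA in 7.15% against 11.4%. Every one of the 713 starts lies near an H3K9ac peak, whereas only 11377 of the 22232 genes have a DOP-treated promoter peak. Starts near shared or untreated-only peaks were not searched, so this contrast cannot be assigned to the members. A match gives the letters only.

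By gene list, 16 of 280 developmental transcription factor genes had a DOP-only promoter peak, a share of 5.71% where all genes had 1.94%, and 5 of the 280 (1.79%) had an untreated-only one, where all genes had 1.30%. Of genes with any DOP-treated promoter peak, a DOP-only one was present at 12.8% of the 125 in this list and at 3.79% over all genes. The highest-scoring were Klf3 (316), the differentiation inhibitors Id4 (282) and Id2 (278), the SoxD factor gene Sox5 (248) and Hoxc10 (218), and 4 of these 5 had 2 member peaks. Klf3, the highest, stood at percentile 38.3 of the list and also had 2 untreated promoter peaks. At Id2 the nearest untreated centre lay 2123 bp from a member, just past the 2 kb limit. Gli1 and Gata2 were among the weaker ones, as were the forebrain genes Dlx6 and Foxp2. Small GTPases and their regulators had 12 of 341 (3.52%), led by Rapgef3, Rgl3 (210), Rab27b (166), Rasgef1a (154) and Rab11fip4 (152), against 5 untreated-only genes. Their share was 4.94% of the 243 with any DOP-treated promoter peak. Extracellular matrix genes had 6 of 142 (4.23%), which were the collagen genes Col12a1 (305), Col6a3 and Col10a1, the aggrecan gene Acan, and the proteases Adamts17 and Adamts4, against 4 untreated-only genes.

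Membrane and secreted proteins followed, and over all genes the shares were 1.94% DOP-only and 1.30% untreated-only. The lists differed in how many genes had any DOP-treated promoter peak, for example 13 of 123 neurotransmitter receptors and 174 of 368 solute carriers. Among such genes the DOP-only shares were 15.4% and 4.02%, against 3.79% over all genes. Growth factor and morphogen genes had 6 of 175 (3.43%), and 3 of these were Wnt ligands, Wnt10b (516), Wnt5b (121) and Wnt1 (97), with Acvr2b, the hepatocyte growth factor receptor Met (35.4) and Igfn1, which is named for its domains and is no growth factor. The untreated-only genes of that list numbered 3. Orphan and adhesion G protein-coupled receptors had 5 of 126 (3.97%), Mrgpre, Lphn2, Gpr160, Gpr75 and Bai1, against 3 untreated-only genes. Ion channels had 6 of 209 (2.87%), the potassium channels Kcnh3 (186), Kcna4, Kcnk7 and Kcnk6, the cation channel Trpv2 and the chloride channel Ano1, against 5 untreated-only genes. Solute carriers had 7 of 368 (1.90%, near the share over all genes) and as many untreated-only genes, 7. They were led by the metal transporter Slc39a8 (186), the glial glutamate transporter Slc1a3 (137) and the cystine transporter Slc7a11 (104), with Slc26a10, Slc45a4, Slc7a8 and Slc23a2 below them. Cadherins had 2 of 75 (2.67%, Celsr2 and Pcdhb21) and axon guidance genes 2 of 73 (2.74%, Sema5b and Sema6b). Neurotransmitter receptors had 2 of 123 (1.63%, Adora2b and the kainate receptor gene Grik4), and cytokines and their receptors 2 of 212 (0.943%, Tnfrsf21 and Il11). The untreated-only counts of these lists were 2, 4, 0 and 3, so that axon guidance genes had more untreated-only (5.48%) than DOP-only members (2.74%). Odorant receptors had 1 of 1481 (0.0675%), Olfr212, and 0 untreated-only genes, and only 2 of the 1481 had any DOP-treated promoter peak.

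Inside the cell, interferon-stimulated genes had 3 of 73 (4.11%), Isg15, Ifi204 and Irf4, and 5 untreated-only genes (6.85%), where all genes had 1.94% and 1.30%. Irf4, an interferon regulatory factor, entered this list by its symbol. Zinc finger proteins had 9 of 447 (2.01%, near the share over all genes), with Zbtb20, Zfp94, Zfp13, Zfp27 and Zbtb7c the highest, against 4 untreated-only genes. Ubiquitin ligases and proteases had 7 of 404 (1.73%, also near that share), namely Cul9, Rnf207, Fbxw7, Rnf182, Klhl3, Klhl32 and Trim5, against 6 untreated-only genes. Motor and cilia genes had 5 of 200 (2.50%, Ttc38, Spag1, Kif6, Rsph9 and Rsph4a), against 1 untreated-only gene. The 5 of 227 ribosomal protein genes (2.20%) were all annotated retrocopies (Rpl27-ps3, Rps13-ps1, Rps2-ps6, Rpl9-ps4 and Rpl23a-ps3), with scores of 45 or less, and 5 genes of that list were untreated-only. Cytochrome P450 and related enzymes had 2 of 119 (Cyp1b1 and Cyp27a1), DNA repair and replication genes 2 of 120 (Orc6 and Parp11), and mitochondrial and peroxisomal genes 2 of 100 (the thioesterases Acot1 and Acot5), with untreated-only counts of 2, 2 and 1. Acot1 is a cytosolic enzyme and entered the last of these lists by its symbol. Single genes came from the sphingolipid list (Smpdl3a of 45, 2.22%), the histones (Hist3h2ba of 67, 1.49%), the tRNA genes (Trmt61a of 56, 1.79%), the trafficking genes (Vps35 of 188, 0.532%) and the RNA processing genes (Elavl2 of 222, 0.45%). The first 3 of these lists had 0 untreated-only genes and the last 2 had 3 each. Smpdl3a, a relative of acid sphingomyelinase, had peaks of 169 and 93.9. None was found among 153 chromatin regulators, 136 cell cycle genes, 102 oxidative phosphorylation genes, 100 keratins and 95 synaptic vesicle and adhesion genes, and the untreated-only counts of these lists were 2, 3, 1, 0 and 4. A DOP-treated promoter peak of any kind was present at 144, 123, 91, 2 and 45 of these genes, so the keratin list could hardly hold a member. The lists hold only genes matched by symbol, so their zeros do not cover every gene of such a role. Cecr2, a chromatin remodelling gene outside the chromatin list, had 2 members, the higher with a score of 193.5. Lrrc4c, the synaptic ligand gene named above, was likewise outside the synaptic list. Of the 431 genes, 107 belong to at least 1 of the lists. No list was tested, since with 1 peak list per condition there is no replicate.

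**Figure D5:**
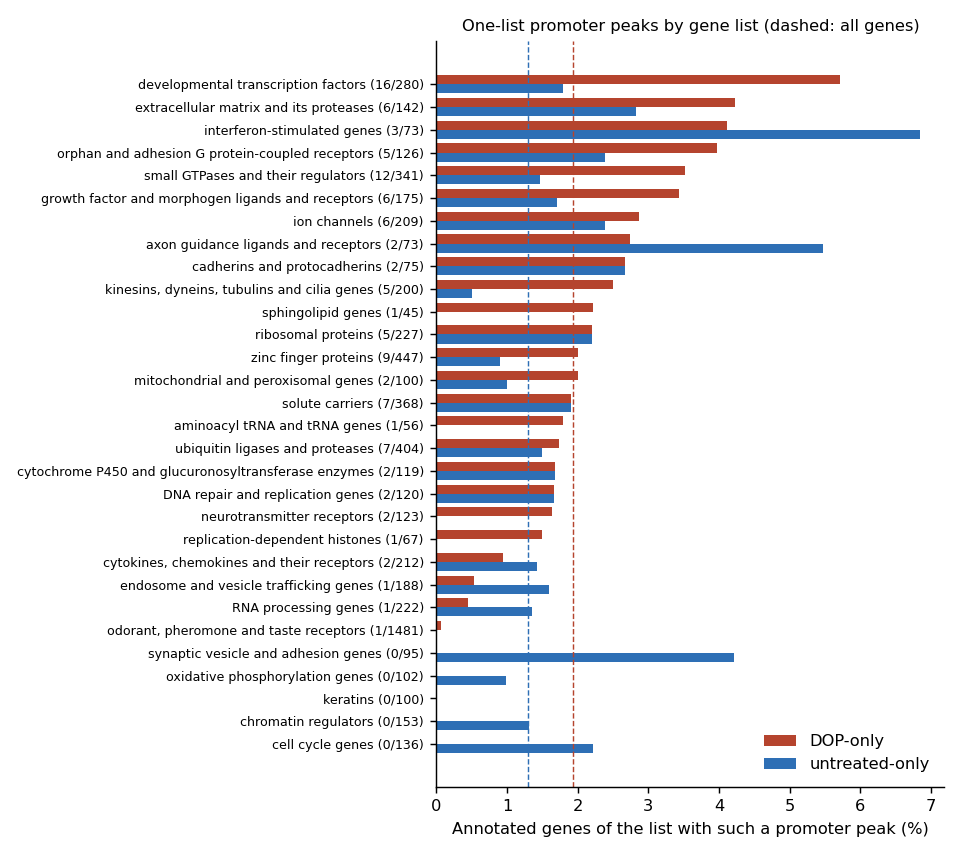
Percent of the annotated genes of each of 30 lists (vertical axis) that had a DOP-only or an untreated-only promoter peak (horizontal axis), with the DOP-only count of each list in its label and the share over all genes, 1.94% and 1.30%, as dashed lines. Developmental transcription factors have the longest DOP-only bar, 16 of 280, and interferon-stimulated genes the longest untreated-only bar.

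Some members have sequence that the aligner could place elsewhere. The 1 kb around 23 members (4.20%, 2.82% to 6.23%) aligned a second time in the assembly, against 1.58% of the shared and 6.22% of the untreated-only promoter peaks. These include Ifi204, Gm9726, Gm3194, Trim5, Rps2-ps6, H60b, Raet1d and the heat shock pair Hspa1a and Hspa1l, so their peaks are uncertain. Predicted genes with symbols starting Gm made up 32 of the 431 genes (7.42%), against 2.59% of all genes with a DOP-treated promoter peak. Such genes were also present among the untreated-only genes, for example Gm10716 and Gm15446. Their share there was not computed, so the excess cannot be called particular to the members. By chromosome the share of promoter peaks that were DOP-only ran from 1.19% on chromosome 1 (16 peaks) to 3.42% on chromosome 18 (20 peaks). On chromosome 1 the untreated-only peaks were more numerous, at 36.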

How the data were processed

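H3K9ac ChIP-seq libraries of STHdh Q111 cells (2 DOP-treated, 2 untreated, 1 IgG) were represented by 1 deposited peak list per condition. Per the study's methods Bowtie 2 served the authors for aligning single-end reads (mm9) and GPS for calling peaks, while the submitters' processing notes name BWA 0.7.10. For each condition the study's methods state fewer peaks than the deposited list holds, and the reason is not given. How the samples of a condition and the IgG sample entered the call, the call threshold and the depth per sample are not given in the sources used here. Column 5 of the deposited lists is a score made by the authors, left undefined in the files, and served only to rank peaks within a list.

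Centres were set against starts of protein-coding transcripts of GENCODE vM1 (NCBIM37). Shares have Wilson and their differences Newcombe 95% intervals. No test between conditions was possible. Functions were tested on simulated peak lists. The motifs were searched as fixed words on both strands, those named NRF1 and YY1 as 1 consensus word each. Sequences were read from NCBIM37, and 1 kb windows were realigned with minimap2 2.31-r1302 (coverage of at least 80%, identity of at least 90%). Alternatives changed the window, the limit, the sharing rule, the score minimum and the unit. Software was pysam 0.24.0, pandas 2.3.3, matplotlib 3.10.9, numpy 2.4.6, and scipy 1.17.1 under Python 3.11.15.

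The named genes were those of the 40 highest-scoring members, genes with 2 or more members, the 10 most distant, the 5 of lowest score, members at the edges of the rule, and all members of a list where it had 8 or fewer, otherwise the 5 highest. The members, the 30 gene lists of the report and the 7 of the closing section were chosen with earlier results of these data known, and gene lists were formed from symbol patterns. One gene that the rule names is not reported here.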

Additional observations from a re-analysis of the deposited data

How the results depend on the processing

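No paired analysis was possible because the 2 samples of a condition were deposited as 1 list without values of their own, so no replicate could be left out either. Under alternative settings 34 of 51 results kept to their limit (for counts 1.5 times the reported value, for shares its 95% Wilson interval). When a member needed only to overlap no untreated interval, there were 3172 DOP-only promoter peaks at 2917 genes and 2532 untreated-only ones, 52.4% of members lay downstream, 30.7% were CpG-rich, and 10.6% of genes had no untreated peak within 10 kb. By construction, this rule admits peaks beside a shifted untreated centre. In the top 50% of the list by score, 23 members remained at 21 genes against 49 untreated-only peaks, 73.9% were downstream and 81.0% of genes had no untreated peak within 10 kb. That share was 60.4% with the untreated limit at 1 kb, 76.9% at 5 kb and 65% with starts of all transcripts. A score of at least 100 in both lists left 195 untreated-only peaks. Read over 1 kb instead of 200 bp, 41.3% of members were CpG-rich. Among members with no other peak of the DOP-treated list within 1 kb, an alternative chosen after seeing the data, 72.3% lay downstream. Of the peaks standing alone in the same way, 85.4% of the shared (83.8% to 86.9%) and 72.6% of the untreated-only promoter peaks did. Apart from what follows from each rule, the cause was not tested. Depth and call threshold are unknown, and their part in these results was not tested.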

Other observations

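Further gene groups, formed after the members had been read and so giving no independent support, were counted in the same way. Over all genes, 1.94% had a DOP-only and 1.30% an untreated-only promoter peak. Of 58 genes that inhibit, modulate or relay Wnt signals, 10 (17.2%) had a DOP-only promoter peak and 1 (1.72%) an untreated-only one. They included the secreted antagonists Notum (score 317), Wif1 (161 and 156), Frzb (148), Sfrp2 (100) and Dkk2 (79.4 and 65.6), the intracellular inhibitors Fam123b, Nkd2 (90) and Cxxc4 (66.1 and 65.9), the polarity gene Prickle1 (207 and 128), and the nuclear factor Tcf7l2 (90.9 and 84.4). Notum removes the lipid that Wnt ligands need for binding. At 8 of the 10 no untreated peak lay within 10 kb of a start, and the exceptions were Prickle1 with 1 and Tcf7l2 with 8. Hedgehog pathway genes had 3 of 19 (15.8%) and 1 untreated-only gene (5.26%), and the 3 were the coreceptor Boc (258 and 244), Gli1 (126) and Disp2 (92). The Gli1 peak lay 2051 bp from an untreated centre, so a limit of 5 kb would leave it out.

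Of 28 genes enriched in striatum, 5 (17.9%) had a DOP-only and 0 an untreated-only promoter peak, where all genes had 1.94% and 1.30%. Besides Pde10a and Ppp1r1b (109), these were Rasgrp2 (132), a calcium-responsive exchange factor, Ptpn5 (131), the striatal-enriched phosphatase STEP, and Foxp2 (84). All 5 stood at or below percentile 21.7 of the list by score. Only 10 of the 28 genes had a DOP-treated promoter peak of any kind. Cyclic nucleotide signalling genes had 8 of 68 (11.8%) and 1 untreated-only gene, and ran from Rapgef3, Adora2b and Gnas through Pde10a, Akap1 (111.4), Prkg2 (70) and Pde8b (61.6) to Pde4b (47). Kinases, phosphatases and their partners had 16 of 165 (9.70%) and 3 untreated-only genes, among them Prkd2, Pik3r2 and Ptpn21 (228). Redox genes had 4 of 80 (5.00%) against 1 untreated-only gene, namely Glrx, Ptgr2 (152 and 128), Oxr1 (142 and 115) and Slc7a11, and claudins had 3 of 28 (10.7%) against 0, namely Cldn23 (186), Cldn10 (77) and Cldn1 (53).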
